A study of Mus musculus with 18 samples.

Results

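The circadian clock of a cell is a transcriptional feedback loop, and the report covers 10 of its genes in lumbar dorsal root ganglia (DRG) after tibial fracture. The 10 genes were *Arntl*, *Nr1d1*, *Nr1d2*, *Per1*, *Per2*, *Per3*, *Ciart*, *Bhlhe41*, *Dbp* and *Tef*, found by symbol among the 36737 genes of the deposited table. They were chosen by a list of clock genes drawn up because *Nr1d1* was among the clearest genes lowered after fracture, so the levels after sham surgery and after fracture selected them. Those levels and their difference are given below as a description, and nothing is read from how many of the genes passed in that comparison.

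The data are RNA-seq libraries of L3–L5 DRG from adult CD1 mice, an outbred strain, with 1 library per mouse. The Sham group had sham surgery, the Fracture group had a pinned tibial fracture with vehicle, and the Fracture+PDX group had the same fracture with protectin DX (PDX), a lipid mediator made from docosahexaenoic acid. Each group held 6 mice (3 males and 3 females), and the fracture groups were sampled on day 3. The day of sampling of the Sham mice, the hour at which any ganglia were taken and the lighting schedule are not given in the sources used here. PDX was given intravenously in most experiments of the study, and its dose is not stated for the mice of these libraries.

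In this loop the activators BMAL1 (the product of *Arntl*) and CLOCK bind E-box elements in DNA and switch on the genes of their own repressors. The PER and CRY proteins, and with them CIART and BHLHE41, hold the activators back, so that the E-box genes rise and fall over a day. NR1D1 and NR1D2 (the REV-ERB nuclear receptors) repress *Arntl* through ROR elements, while DBP and TEF activate genes through D-box elements. E-box genes and *Arntl* therefore peak at opposite times of day in most tissues.

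Promoter sequences of 9 of the 10 genes were found in RefSeq windows (build GRCm38.p6) that run from 250 bases before to 50 bases after a transcription start. *Per2* had no entry. The windows were searched on both strands for the E-box CACGTG, the E′-box CACGTT, the D-boxes TTATGTAA and TTACGTAA, and the ROR element TAGGTCA, none of which overlapped another. An E-box lay in 5 of the 12 windows of these genes, which belong to 4 genes (*Ciart*, *Per1*, *Bhlhe41* and *Tef*), against 7.15% of all 32851 windows. *Ciart* had 3 E-boxes and *Per3* had 2 D-boxes, a motif found in 1.06% of all windows. *Nr1d1* had an E′-box (4.68% of all windows), and 1 of the 2 *Arntl* windows had a ROR element (2.61%). No listed motif was found in these windows of *Dbp* and *Nr1d2*. The 250 bases before the start of 4 genes are shown because they hold 1 example or more of 3 of these motifs, with the matches in capitals.
Ciart, chr3:95882229-95882478, minus strand: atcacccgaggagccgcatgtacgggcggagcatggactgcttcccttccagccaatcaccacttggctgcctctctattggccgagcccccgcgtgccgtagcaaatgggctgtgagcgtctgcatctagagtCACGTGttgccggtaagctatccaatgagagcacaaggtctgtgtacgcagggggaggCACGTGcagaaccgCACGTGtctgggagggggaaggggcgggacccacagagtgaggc
Per1, chr11:69098699-69098948, plus strand: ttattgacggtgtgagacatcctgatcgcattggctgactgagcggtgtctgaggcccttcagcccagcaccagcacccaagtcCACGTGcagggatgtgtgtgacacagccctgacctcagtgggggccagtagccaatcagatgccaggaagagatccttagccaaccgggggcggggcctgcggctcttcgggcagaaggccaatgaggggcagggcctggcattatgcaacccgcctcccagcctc
Nr1d1, chr11:98775378-98775627, minus strand: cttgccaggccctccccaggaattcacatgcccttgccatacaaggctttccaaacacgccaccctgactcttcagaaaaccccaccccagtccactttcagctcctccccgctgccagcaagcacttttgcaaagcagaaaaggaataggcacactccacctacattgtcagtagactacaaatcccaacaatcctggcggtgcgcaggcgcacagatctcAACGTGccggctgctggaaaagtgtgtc
Per3, chr4:151044666-151044915, minus strand: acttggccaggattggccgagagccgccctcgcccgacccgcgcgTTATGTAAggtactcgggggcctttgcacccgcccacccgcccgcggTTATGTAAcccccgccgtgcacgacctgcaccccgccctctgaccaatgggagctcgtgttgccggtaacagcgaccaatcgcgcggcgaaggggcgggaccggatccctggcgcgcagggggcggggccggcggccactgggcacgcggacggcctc
These matches describe letters in a window and were not measured as binding in the DRG.

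Levels of different genes were compared in sham mice by FPKM, in which fragments are scaled by transcript length and by the mapped fragments of the library. *Tef* stood highest at 15.5 ± 0.921 FPKM (SD, n = 6). *Nr1d2* (13.2 ± 1.41), *Nr1d1* (13.1 ± 1.80) and *Dbp* (13.04 ± 1.55) followed, and these 3 neighbours differed by less than their spread. *Per1* reached 8.06 ± 2.20 FPKM and *Bhlhe41* 5.24 ± 0.128 FPKM, and the lowest Sham library of *Per1* (4.83 FPKM) was below every Sham library of *Bhlhe41*. *Per3* (3.18 ± 0.583 FPKM), *Per2* (3.17 ± 0.989 FPKM) and *Ciart* (2.77 ± 0.542 FPKM) also differed by less than their spread. *Arntl*, the activator, was lowest at 0.393 ± 0.123 FPKM, with between 113 and 398 counts in each of the 18 libraries. Its FPKM stood apart from those of the other 9 genes in every library.

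**Figure D1:**
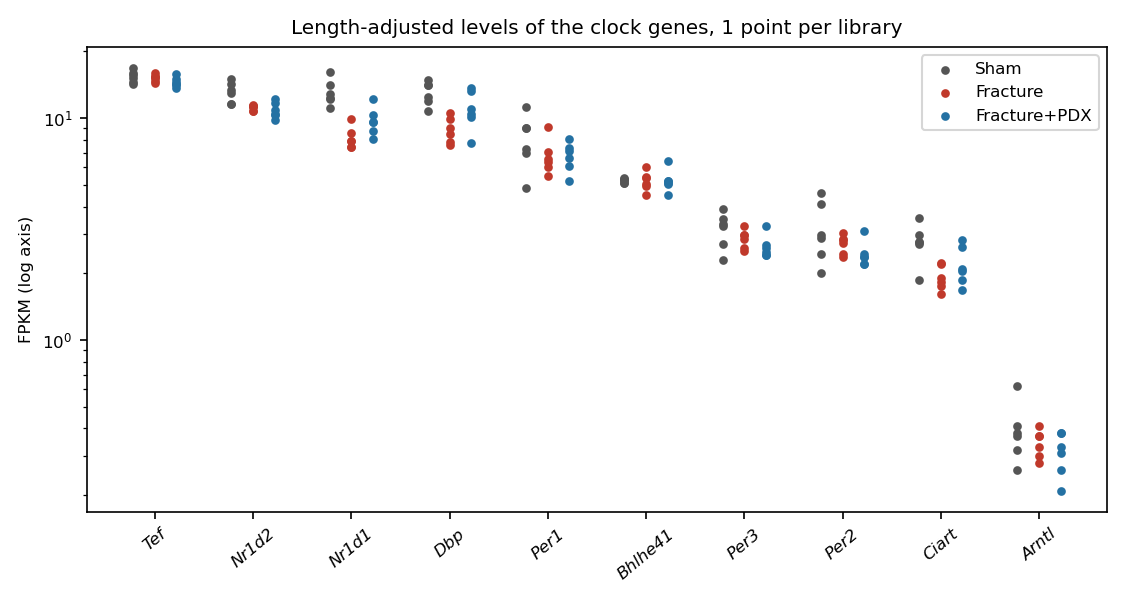
FPKM of the 10 clock genes (log axis), 1 point per library, grouped by Sham, Fracture and Fracture+PDX and ordered by the sham mean. *Tef* is highest and *Arntl* is lowest in all 3 groups.

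The libraries held between 63235040 and 82824942 counts, the expression of sex-linked genes matched the labelled sex in 18 of 18, and all 12 sensory neuron markers were detected in every library. Marker genes of neurons and of other tissues varied between libraries and groups. The summed level of the sensory neuron markers was 9243 to 9911 CPM (counts scaled to a common library size) in Sham, 10229 to 10959 in Fracture and 9867 to 11332 in Fracture+PDX, so that Sham and Fracture did not overlap. The summed level of 8 placenta markers was 158 to 499 CPM in Sham, 28.7 to 230.5 in Fracture and 27.7 to 127 in Fracture+PDX, and 7 of the 8 had counts in every library. That of 12 skeletal muscle markers was 107 to 871, 142 to 1650 and 81.1 to 823 CPM, with counts of all 12 in every library. That muscle list holds *Pvalb*, which is also on the list of sensory neuron markers and alone had 57.0 to 102 CPM in Sham, 75.1 to 128 in Fracture and 62.99 to 101 in Fracture+PDX. That of 6 macrophage markers was 83.04 to 95.8 CPM in Sham against 60.1 to 79.1 in Fracture and 61.8 to 87.2 in Fracture+PDX. That of 5 red blood cell markers was 773 to 2204, 967 to 1343 and 496 to 2846 CPM. For Fracture against Sham 3 of 12 sensory neuron markers were called higher and 2 of 6 macrophage and 2 of 8 placenta markers lower by edgeR, against 1.09% of all genes called higher and 1.83% lower. For Fracture+PDX against Sham 6 of 8 placenta markers (median log2 fold change −2.20) and 1 macrophage marker were called lower, and 1 sensory neuron and 1 of 6 satellite glia markers higher, against 2.32% of all genes lower and 2.17% higher. For Fracture against Sham the 5 red blood cell markers all had a log2 fold change below 0 (median −0.53). The part of the neuron, macrophage and red blood cell markers in the clock values was not tested. Which cells the clock transcripts came from was not measured, and in whole ganglia fewer cells of a type and less RNA per cell cannot be told apart.

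The question of the first comparison was how the clock genes of the DRG differ on day 3 after fracture. *Nr1d1* and *Dbp* were lower in every Fracture library than in any Sham library, *Ciart* had overlapping groups and a log2 fold change of −0.51 ± 0.14 (SE), and those of *Tef* and *Bhlhe41* were −0.01 ± 0.043 and 0.01 ± 0.06. Levels within a gene are given as CPM scaled by edgeR's TMM method. Differences are log2 fold changes from edgeR's quasi-likelihood fit with sex as a covariate.

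The negative arm was described first. *Nr1d1*, the repressor of *Arntl*, ranged from 38.1 to 55.0 CPM in Sham (median 42.9), from 24.9 to 33.7 in Fracture (median 27.2) and from 27.3 to 42.4 in Fracture+PDX (median 32.8). The Fracture libraries lay below all Sham libraries, and 5 of the 6 Fracture+PDX libraries did so too. Fracture differed from Sham by a log2 fold change of −0.67 ± 0.082 (SE, n = 6 a group). In males the means were 47.0 ± 7.00 CPM in Sham and 29.3 ± 3.78 in Fracture (SD, n = 3), and in females 41.9 ± 4.65 and 26.5 ± 2.24. Both sexes held lower values after fracture, which follows from the lack of overlap between the groups and is no separate support.

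*Nr1d2*, its paralog, ranged from 67.5 to 88.2 CPM in Sham (median 79.3), from 63.6 to 68.5 in Fracture (median 67.3) and from 58.2 to 74.1 in Fracture+PDX (median 64.4). In each fracture group 4 of 6 libraries lay below all Sham libraries. Its log2 fold change of Fracture against Sham was −0.23 ± 0.061 (SE), smaller than that of *Nr1d1*, which was chosen for its difference in these libraries. The difference between the paralogs was not tested. The Fracture libraries of *Nr1d2* were close together, with an SD of 1.90 CPM against 8.40 CPM in Sham.

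The *Per* genes encode the repressors that bind CRY proteins. *Per1* ranged from 30.0 to 68.3 CPM in Sham (median 50.9), from 34.4 to 56.6 in Fracture (median 39.97) and from 33.1 to 50.9 in Fracture+PDX (median 43.1). *Per2* ranged from 12.9 to 29.0 CPM (median 19.1), from 15.4 to 19.7 (median 18.1) and from 14.2 to 19.8 (median 15.5) in the same order. *Per3* ranged from 24.3 to 40.6 CPM (median 35.4), from 26.8 to 34.7 (median 30.7) and from 25.4 to 34.3 (median 27.2). In all 3 genes the Sham libraries spread around those of Fracture, and no Fracture library lay outside the sham range. The log2 fold changes of Fracture against Sham were −0.24 ± 0.16 for *Per1*, −0.19 ± 0.17 for *Per2* and −0.14 ± 0.12 for *Per3* (SE). Single Sham libraries moved these values, which ran from −0.34 (without Sham male 1) to −0.15 (without Sham male 3) for *Per1*, from −0.30 to −0.089 for *Per2* and from −0.22 to −0.080 for *Per3*. For *Per2* and *Per3* the lower end was without Sham male 1 and the upper end without Sham female 2.

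*Ciart*, which encodes a repressor of CLOCK and BMAL1, ranged from 4.56 to 8.66 CPM in Sham (median 6.98), from 4.13 to 5.57 in Fracture (median 4.72) and from 4.22 to 7.27 in Fracture+PDX (median 5.21). The lowest Sham library, female 1, fell among the Fracture libraries, and the other 5 Sham libraries (6.79 CPM or more) lay above all of them. Against Sham, the log2 fold change of Fracture was −0.51 ± 0.14 (SE), and −0.62 without Sham female 1. *Bhlhe41* (DEC2) ranged from 36.9 to 40.2 CPM in Sham, from 33.2 to 44.7 in Fracture and from 33.7 to 48.7 in Fracture+PDX, with medians of 39.0, 38.8 and 38.5. A log2 fold change of 0.01 ± 0.06 (SE) was fitted, and the spread was wider in both fracture groups than in Sham.

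Among the activators, *Arntl* ranged from 2.19 to 5.05 CPM in Sham (median 3.12), from 2.32 to 3.49 in Fracture (median 2.90) and from 1.81 to 3.21 in Fracture+PDX (median 2.67). The groups overlapped, and the highest value was that of Sham female 1. In the fit of Fracture against Sham, *Arntl* had a log2 fold change of −0.19 ± 0.16 (SE), which was −0.06 without Sham female 1 and −0.28 without Sham female 3. A relation of this difference to that of *Nr1d1* was not tested.

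*Dbp*, a D-box activator and a classical output of the E-box loop, ranged from 34.8 to 49.1 CPM in Sham (median 43.4), from 25.4 to 34.5 in Fracture (median 29.0) and from 25.5 to 45.8 in Fracture+PDX (median 36.2). The Fracture libraries lay below all Sham libraries by a narrow margin, whereas only 2 of 6 Fracture+PDX libraries did. The log2 fold change of Fracture against Sham was −0.53 ± 0.081 (SE). *Tef*, the related D-box activator, ranged from 124 to 143 CPM in Sham, from 125 to 138 in Fracture and from 118 to 135 in Fracture+PDX. Its log2 fold change was −0.01 ± 0.043 (SE), and its groups overlapped almost throughout.

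*Dbp* (chr7:45705088-45710203, plus strand, build mm10) shares 18.01% of its annotated exon bases with *Sphk2* on the other strand, and the strand setting of the authors' counting is not given in the sources used here. For Fracture against Sham *Sphk2* had a log2 fold change of 0.02 ± 0.038 (SE). In the deposited coordinates *Nr1d1* (chr11:98767932-98775333, minus strand) overlaps no other gene of the table. Those coordinates matched the GENCODE M21 annotation for 88.2% of the genes found in both. Overlaps of *Nr1d1* in GENCODE M21 were not examined, so reads from the other strand were not tested for.

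**Figure D2:**
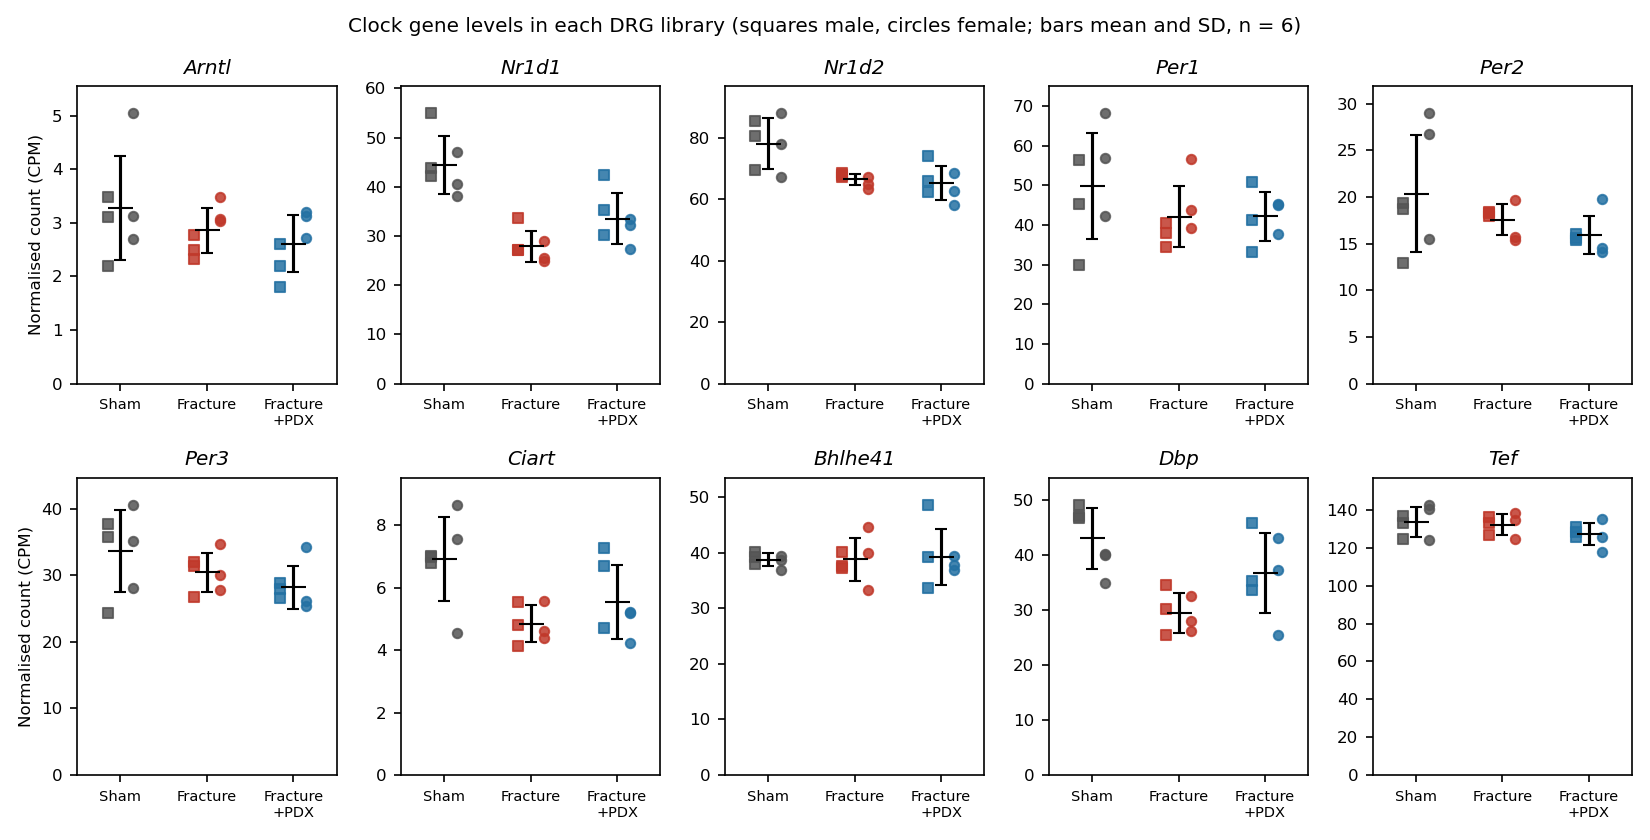
Normalised counts (CPM, axes from 0) of the 10 clock genes in each library, with squares for males, circles for females and bars for the mean and SD of 6 mice. The Fracture values of *Nr1d1* and *Dbp* lie under all Sham values, while the groups of *Arntl*, *Tef* and *Bhlhe41* overlap.

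In the fit of Fracture against Sham, 2.92% of 20659 genes passed an adjusted p-value of 0.05 (603 genes), and of the 10 clock genes *Nr1d1* and *Dbp* were among them, both lower. Every Fracture library was below every Sham library for 1.48% of 21340 genes, *Nr1d1* and *Dbp* included. The log2 fold change was below 0 for 9 of the 10, with a median of −0.21, against 49.3% of all genes tested and a median of 0.00. Since these libraries chose the genes, nothing is read from the counts. With the skeletal muscle markers as a covariate the log2 fold changes were −0.61 ± 0.097 for *Nr1d1* and −0.41 ± 0.070 for *Dbp* (SE). With the placenta markers as a covariate, added after seeing the data, they were −0.51 ± 0.12 and −0.31 ± 0.10, with −0.29 ± 0.21 for *Ciart* and −0.09 ± 0.26 for *Per1*, and 1 gene of the whole table passed. The part of these markers in the difference was not tested further, and because the placenta level moved with the groups the 2 cannot be told apart by this fit.

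Fracture+PDX libraries took no part in the choice of the genes, but the comparison with Sham shares the Sham libraries that did. It is thus given beside the first one and is no independent support for it. *Nr1d1* was lower than in Sham by a log2 fold change of −0.41 ± 0.094 (SE), with 6 of 6 libraries below the sham mean and an adjusted p-value of 0.0293 by edgeR's quasi-likelihood test. It was the 1 clock gene of 10 that passed, against 4.5% of 20574 genes. Every Fracture+PDX library was below every Sham library for 1.42% of 21340 genes and for 0 of the 10. Leaving out Sham female 1, Sham female 2 or 1 of the Fracture+PDX libraries male 1, male 3 and female 1 ended the call of *Nr1d1*, with log2 fold changes of −0.47 to −0.35 over all libraries left out in turn. The call was also lost by limma on log2(FPKM + 0.1), at −0.42 (adjusted p = 0.0689), and with a replicate block in edgeR, at −0.41 (adjusted p = 0.0595). With the placenta markers as a covariate its log2 fold change was −0.13 ± 0.20 (SE), with an adjusted p-value of 0.972 by edgeR's test, and 0 genes of the table passed.

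The other values of Fracture+PDX against Sham were −0.26 ± 0.074 for *Nr1d2*, −0.22 ± 0.12 for *Dbp*, −0.33 ± 0.16 for *Ciart* and −0.33 ± 0.17 for *Arntl* (log2 fold change ± SE). Those of the *Per* genes were −0.23 ± 0.18 (*Per1*), −0.34 ± 0.17 (*Per2*) and −0.25 ± 0.12 (*Per3*). None of these 7 passed the adjusted threshold in this fit. *Nr1d2* (adjusted p = 0.0693 by edgeR) passed by DESeq2 (0.0146), with all 18 libraries in 1 edgeR fit (0.0183), with a replicate block (0.0295), and without Sham male 1 (0.0314) or Sham female 1 (0.0409). With 1 library left out they reached −0.14 for *Dbp* (without Fracture+PDX female 1), −0.14 for *Per1* (without Sham female 2) and −0.20 for *Arntl* (without Sham female 1). *Tef* (−0.07 ± 0.044) and *Bhlhe41* (0.02 ± 0.069) stood nearest to 0. With the placenta markers as a covariate the values were −0.15 ± 0.17 for *Nr1d2*, −0.13 ± 0.28 for *Dbp*, −0.07 ± 0.35 for *Ciart*, −0.32 ± 0.41 for *Arntl*, 0.07 ± 0.40 for *Per1*, −0.13 ± 0.39 for *Per2* and −0.17 ± 0.28 for *Per3* (log2 fold change ± SE).

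The effect of PDX was asked by comparing Fracture+PDX with Fracture, which shares the Fracture libraries used to choose the genes. *Nr1d1* was picked for its low level in these Fracture libraries, a choice that favours a higher value in any group set against them, so the differences are given as a description. *Nr1d1* was at 33.5 ± 5.15 CPM with PDX against 27.9 ± 3.19 without (SD, n = 6), and 2 of 6 Fracture+PDX libraries lay above all Fracture libraries. The difference was 0.26 ± 0.086 on the log2 scale (SE), with an adjusted p-value of 0.887 by edgeR's quasi-likelihood test. *Dbp* was at 36.7 ± 7.22 CPM against 29.5 ± 3.62 (SD, n = 6), and 4 of 6 Fracture+PDX libraries lay above all Fracture libraries. For *Dbp* the difference was 0.32 ± 0.13 on the log2 scale (SE), with an adjusted p-value of 0.901 by the same edgeR test. *Ciart* followed at 0.19 ± 0.13, and at 0.11 without Fracture+PDX male 2. The other 7 lay between −0.14 (*Per2*) and 0.02 (*Bhlhe41*), and *Per2* was at −0.23 without Fracture+PDX female 3.

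None of the 10 passed by edgeR or DESeq2, and 2 (*Nr1d1* and *Dbp*) had an unadjusted p-value under 0.05. By edgeR 0% of all 20562 genes passed, and 1113 had an unadjusted p-value under 0.05. DESeq2 called 15 genes of the table.

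**Figure D3:**
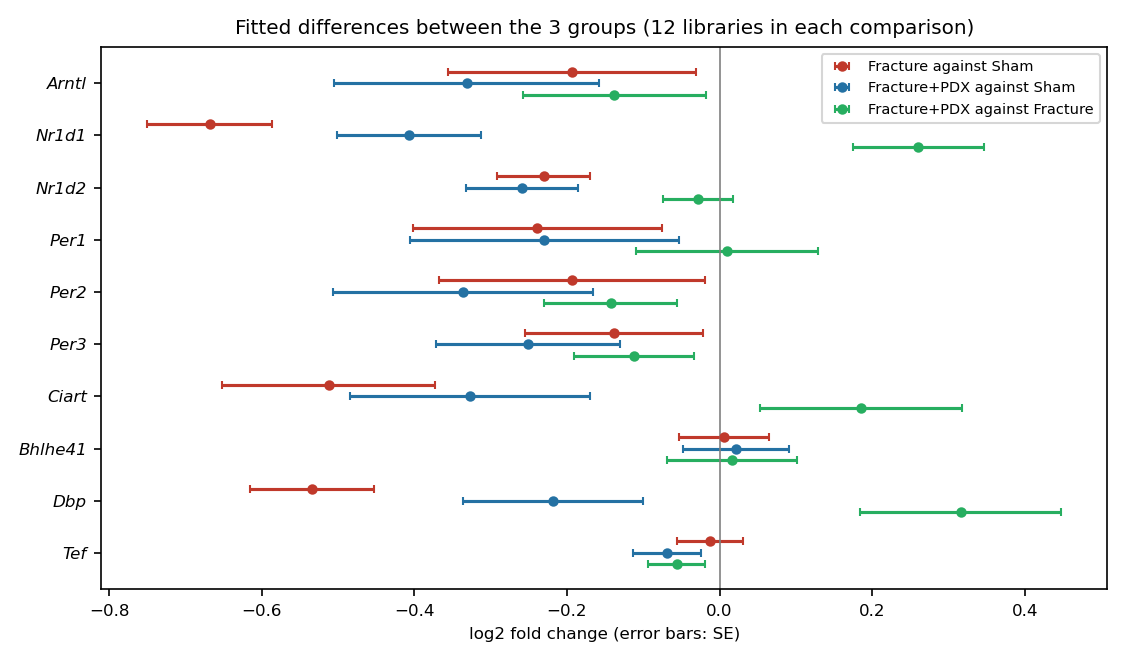
Log2 fold change and SE of the 10 clock genes in 3 comparisons of 12 libraries each. *Nr1d1*, *Dbp* and *Ciart* lie farthest below 0 for Fracture against Sham and above 0 for Fracture+PDX against Fracture, while *Bhlhe41* and *Tef* stay near 0 in all 3.

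Sex took no part in the choice of the genes, and it was tested over 18 libraries with group as a covariate. *Arntl* was higher in females, at 3.63 ± 1.25 against 2.93 ± 0.662 CPM in Sham (SD, n = 3), 3.20 ± 0.254 against 2.53 ± 0.227 in Fracture and 3.03 ± 0.261 against 2.21 ± 0.400 in Fracture+PDX. The sexes overlapped in Sham and did not overlap in the 2 fracture groups. In Fracture+PDX the highest male was at 2.61 CPM and the lowest female at 2.73 CPM. The share of all genes with such a separation of 3 from 3 mice was not counted, so nothing is read from it. The log2 fold change of females against males was 0.37 ± 0.12 (SE), with an unadjusted p-value of 0.00814 and an adjusted one of 0.264 by edgeR's quasi-likelihood test. *Nr1d1* was lower in females by −0.18 ± 0.073 (log2 fold change ± SE), with an adjusted p-value of 0.408 by the same edgeR test, and its mean was lower in females in all 3 groups. The remaining 8 genes lay between −0.16 (*Dbp*) and 0.23 (*Per1*).

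No clock gene passed for sex by edgeR or DESeq2, and 0.291% of 21340 genes passed by edgeR (62 genes). An unadjusted p-value under 0.05 by edgeR was held by 2 of the 10 clock genes and by 2155 of the 21340 genes. For the difference between the sexes in the response to fracture, 0% of 20659 genes passed by edgeR, with 1488 genes and 0 of the 10 clock genes at an unadjusted p-value under 0.05. *Nr1d1* differed between the sexes in that response by 0.01 ± 0.17 on the log2 scale (SE), and *Per2* had the largest estimate of the 10, −0.59 ± 0.31. For the difference between the sexes in the response to PDX, 0.00486% of 20562 genes passed (1 gene) by edgeR, none of them a clock gene. There 851 genes and 0 of the 10 clock genes had an unadjusted p-value under 0.05, and 0 of so few genes is no result about them.

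All of the genes but *Arntl* varied between mice of 1 group more than most genes of a like level. After removal of the mean of each group and sex, the SD of log2 CPM was 0.30 for *Per1*, a value above that of 97.8% of the 1000 genes nearest in mean level. *Dbp* (0.22), *Per2* (0.28), *Per3* (0.22) and *Nr1d1* (0.18) exceeded 94.8%, 94.4%, 92.9% and 91.4% of their like-level genes. *Bhlhe41* (87.7%), *Nr1d2* (86.0%), *Ciart* (73.8%) and *Tef* (67.7%) followed. *Arntl*, with an SD of 0.27 at a low level, exceeded 47.7%.

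Deviations from the mean of each group and sex were then compared between genes, which asks whether the genes moved together from mouse to mouse. The choice of the genes did not use correlations between them, although the spread of *Nr1d1* within Sham and Fracture bore on how clear its difference was. All 45 pairs were tested over 18 libraries by exact permutation of the mice within each group and sex (46656 arrangements, two-sided), with Benjamini-Hochberg adjustment over the 45 pairs. The libraries share the counting and scaling steps, so a shared error of scaling enters both genes of a pair.

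Of the 45 pairs, 13 passed an adjusted p-value of 0.05, all with a positive correlation, and these pairs joined *Nr1d2*, *Per1*, *Per2*, *Per3*, *Tef*, *Dbp*, *Ciart* and *Bhlhe41*. The lowest r of these 13 was 0.48, a value reached by 48.9% of the 45 pairs and by 5.63% of all 227687130 pairs of genes kept by the filter. That cut was taken from the same 45 pairs, and the pairs of all genes were not matched for level or spread. The 2 shares are thus a description. The summed level of 6 Schwann cell markers varied among the Sham libraries from 10272 to 23702 CPM, and its part in these correlations was not tested. *Per2* and *Per3* had r = 0.90 (exact permutation p = 0.00246, adjusted 0.0168) and Spearman's rho = 0.85 (p = 0.00493, adjusted 0.0222). *Nr1d2* and *Per3* had r = 0.85 (exact permutation p = 0.000622, adjusted 0.0129) and rho = 0.87 (p = 0.000322, adjusted 0.00723). *Dbp* and *Ciart* had r = 0.68 (exact permutation p = 0.000600, adjusted 0.0129) and rho = 0.82 (p = 0.000322, adjusted 0.00723). When the 2 most extreme libraries of the first gene were left out, r was 0.93, 0.81 and 0.65 for these 3 pairs, and 2 of 45 pairs passed (*Nr1d2* with *Per3*, and *Dbp* with *Ciart*).

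*Arntl* had a negative r with 7 of the other 9 genes, the lowest being −0.67 with *Per2* (exact permutation p = 0.0597, adjusted 0.122; rho = −0.62, p = 0.0297). Without Sham female 1 it had a negative r with 4 of the 9, and those with *Nr1d2* (−0.29), *Dbp* (−0.06) and *Ciart* (−0.43) became 0.15, 0.11 and 0.10. None of its pairs passed. *Arntl* and *Nr1d1* had r = 0.60 (exact permutation p = 0.0392, adjusted 0.0971) and rho = 0.61 (p = 0.0391), and r = 0.51 without the 2 farthest libraries. None of the 9 pairs of *Nr1d1* passed, and its r with *Dbp* was 0.54 (exact permutation p = 0.0523, adjusted 0.118; rho = 0.48, p = 0.101).

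The Sham library of female 1 weighed on these relations. It held the highest *Arntl* (5.05 CPM) and the lowest *Ciart* (4.56 CPM), *Dbp* (34.8 CPM), *Nr1d2* (67.5 CPM), *Tef* (124 CPM) and *Bhlhe41* (36.9 CPM) of the Sham group. Without it, 0 of 45 pairs passed by the exact permutation test, 13 had an unadjusted p-value under 0.05, and the smallest adjusted value was 0.0666. The r of *Per2* with *Per3* was then 0.92, that of *Nr1d2* with *Per3* 0.80, that of *Dbp* with *Ciart* 0.77 and that of *Arntl* with *Per2* −0.36.

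**Figure D4:**
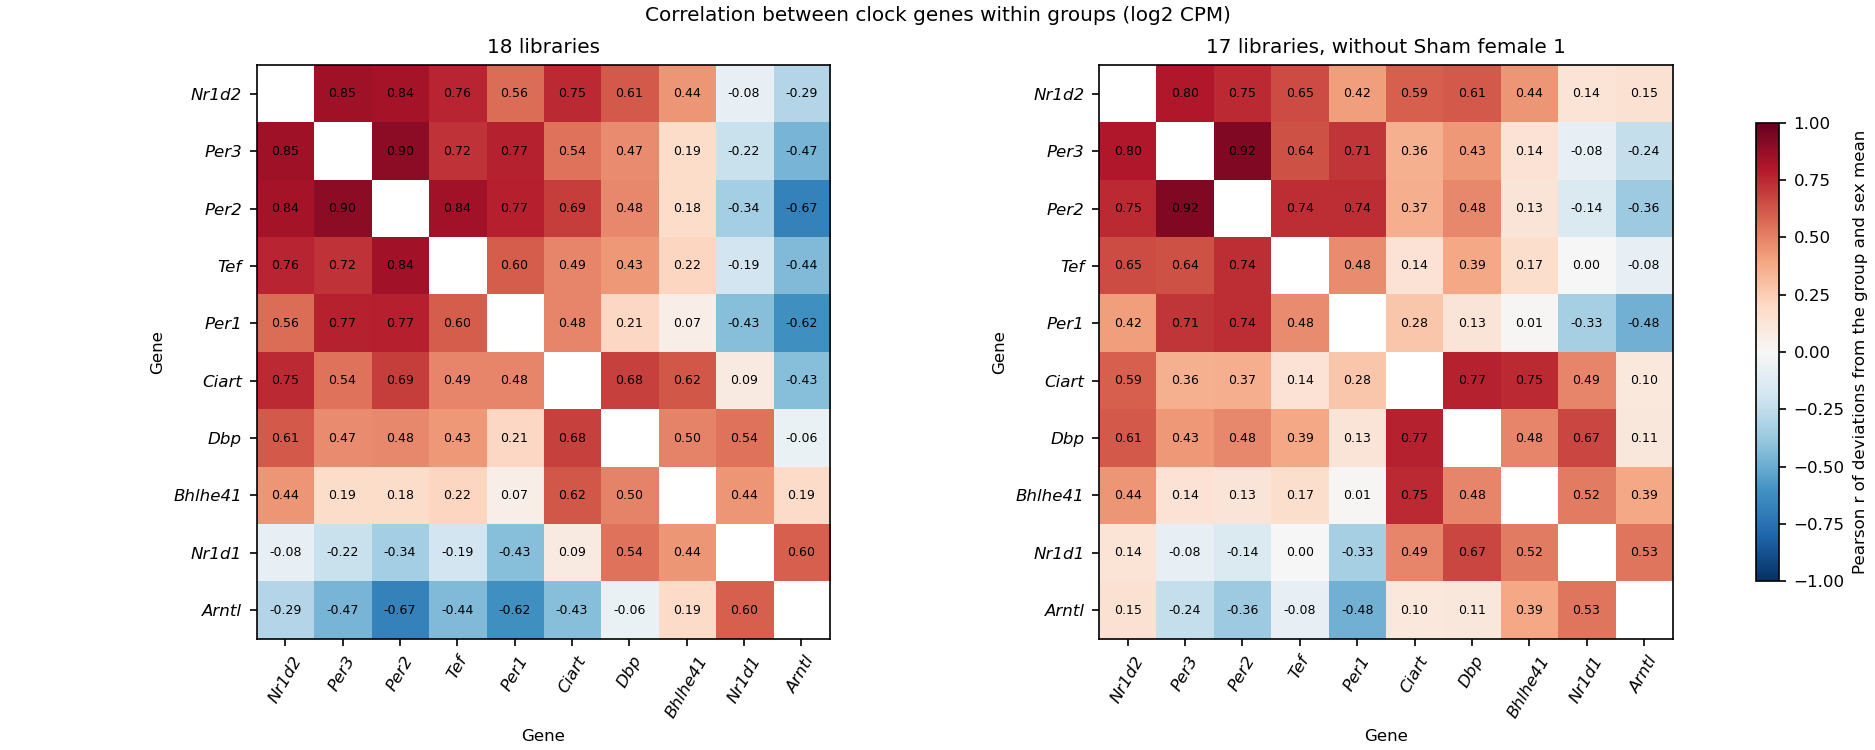
Pearson r between the deviations of the 10 clock genes from the mean of their group and sex (log2 CPM), over 18 libraries on the left and without Sham female 1 on the right. The block of *Nr1d2*, *Per3*, *Per2*, *Tef* and *Per1* is positive in both, from 0.56 to 0.90 on the left, and *Arntl* has 7 negative values on the left and 4 on the right.

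Within single groups of 6 libraries a pair has 36 arrangements and a smallest exact p-value of 0.0278, too large for 1 pair alone to pass over 45 pairs, and the values are descriptions. In Sham *Nr1d1* ran against 8 of the other 9 genes, with r = −0.91 for *Per3*, −0.90 for *Per1* and 0.68 for *Arntl*. In Fracture it ran with 8 of the 9, with r = 0.77 for *Per1* and 0.89 for *Ciart*. In Fracture+PDX it also ran with 8 of the 9, with r = 0.78 for *Dbp* and −0.54 for *Per1*. The difference between groups in these values was not tested. In Sham, male 1 and female 1 had the highest *Nr1d1* of their sex (55.0 and 47.1 CPM) and the lowest *Per1* (30.0 and 42.4 CPM), *Per2* (12.9 and 15.5 CPM) and *Per3* (24.3 and 28.1 CPM).

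**Figure D5:**
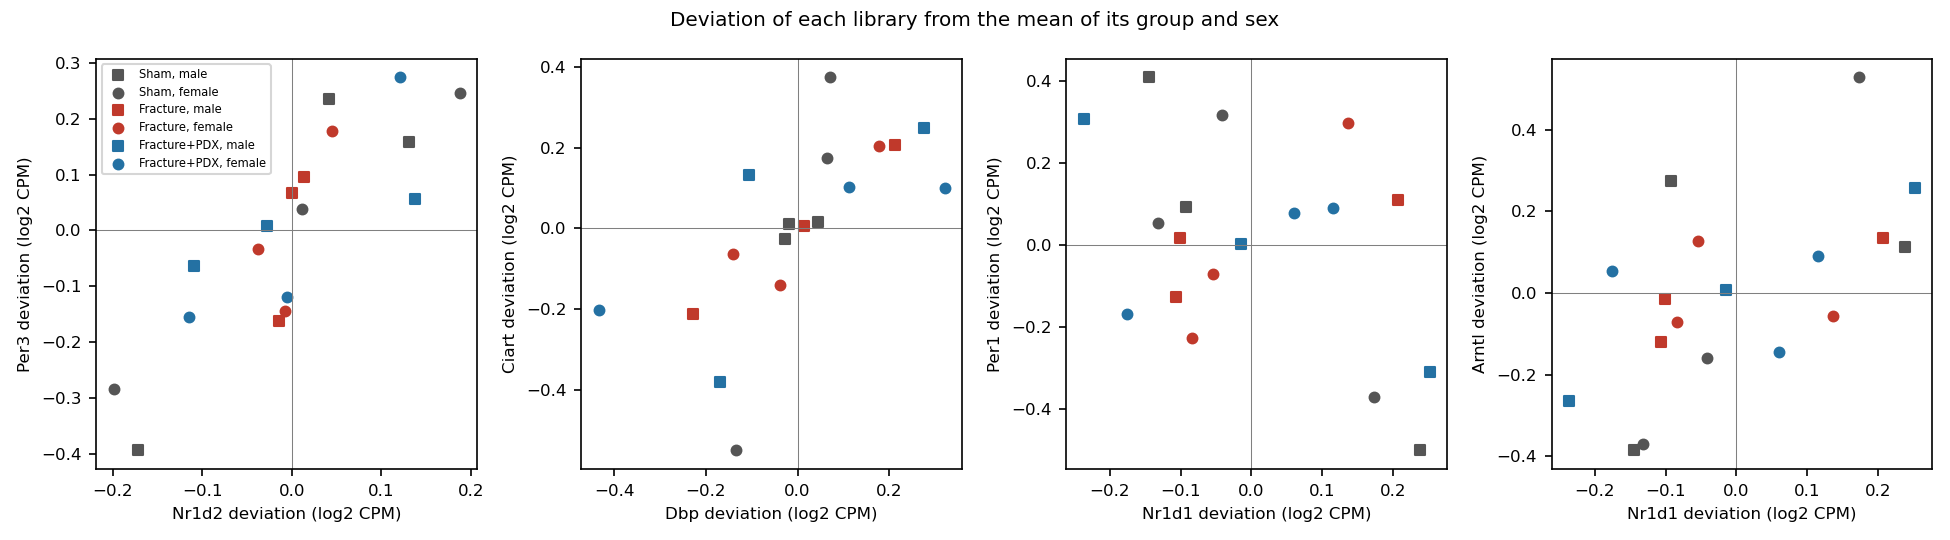
Deviation of each library from the mean of its group and sex (log2 CPM) for 4 pairs of clock genes, with 1 point per library. *Nr1d2* and *Per3* rise together in all 3 groups, whereas the Sham points of *Nr1d1* and *Per1* run from upper left to lower right (r = −0.90) and the Fracture points from lower left to upper right (r = 0.77).

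Over all 21339 other genes kept by the filter, the deviations most like those of *Nr1d1* were those of *Tub* (r = 0.86), *Polr2j* (0.86), *Hoxc5* (0.86), *Dnaja2* (0.84), *Ifitm3* (0.84), *Marcks* (0.84), *S1pr2* (0.83), *Dele1* (0.83), *Kctd5* (0.82) and *Amz1* (0.82), over 18 libraries. The most opposed were *Kcng4* (−0.89), *Trpc4ap* (−0.88), *Endod1* (−0.88), *Pi4ka* (−0.88) and *Fut1* (−0.88). No clock gene was among these 15. *Arntl* came nearest, at rank 558, followed by *Dbp* at rank 929.

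Other genes of the loop were taken from fixed lists. Of 3 further E-box activators (*Clock*, *Npas2* and *Arntl2*), 0 passed in any of the 3 comparisons of groups by edgeR, in which 2.92%, 4.5% and 0% of all genes passed, so that 0 of so few genes is no result about them. Of 3 further E-box repressors, *Cry1* and *Cry2* did not pass in any. *Bhlhe40* (DEC1), the paralog of *Bhlhe41*, was at 43.1 ± 4.62 CPM in Sham, 35.8 ± 2.88 in Fracture and 35.2 ± 3.16 in Fracture+PDX (SD, n = 6). Its log2 fold change was −0.27 ± 0.068 for Fracture (adjusted p = 0.0542 by edgeR) and −0.29 ± 0.074 for Fracture+PDX (adjusted p = 0.0396 by edgeR), both against the same Sham libraries. The difference between *Bhlhe40* and *Bhlhe41* was not tested.

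Of 5 further ROR-element and D-box factors 4 could be tested and 0 passed in the same 3 comparisons, against the same shares of all genes. *Hlf*, the third member of the *Dbp* and *Tef* family, had −0.35 ± 0.11 for Fracture against Sham (log2 fold change ± SE, adjusted p = 0.109 by edgeR), 0.07 ± 0.090 for Fracture+PDX against Fracture, and was named after its values were seen. Of 18 kinases, phosphatases, ligases and other regulators of clock proteins, 0 passed for Fracture and 2 rose for Fracture+PDX against Sham, a comparison in which 2.17% of all genes were called higher. These were *Prkaa2*, a catalytic subunit of AMP-activated kinase (0.20 ± 0.043, adjusted p = 0.0168 by edgeR), and *Fbxw11*, a β-TrCP ubiquitin ligase component (0.13 ± 0.032, adjusted p = 0.0381 by edgeR). For Fracture against Sham they had 0.17 ± 0.047 and 0.09 ± 0.026, with adjusted p-values of 0.0735 and 0.0724 by edgeR.

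Of 12 clock-controlled output genes 10 had a log2 fold change below 0 for Fracture against Sham, with a median of −0.18, against 49.3% of all genes below 0, and 1 passed, against 2.92% of all genes. It was *Por*, the electron donor of microsomal P450 enzymes, at 75.4 ± 3.605 CPM in Sham, 65.8 ± 2.68 in Fracture and 68.9 ± 2.34 in Fracture+PDX (SD, n = 6). Its Fracture libraries (61.8 to 69.6 CPM) lay below all Sham libraries (71.0 to 81.5 CPM), as did those of 1.48% of 21340 genes. Its log2 fold change was −0.19 ± 0.039 (SE, adjusted p = 0.0215 by edgeR), and −0.13 ± 0.038 for Fracture+PDX against Sham (adjusted p = 0.0774 by edgeR). For Fracture+PDX against Sham 11 of the 12 outputs were below 0, with a median of −0.23, against 50.4% of all genes below 0, and 0 passed. For Fracture+PDX against Fracture 11 were tested and 0 passed. With the placenta markers as a covariate 1 gene of the whole table passed for Fracture against Sham and 0 for Fracture+PDX against Sham. The calls of *Bhlhe40*, *Prkaa2* and *Fbxw11* for Fracture+PDX were thus lost in that fit.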

How the data were processed

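The authors made poly(A)-selected, strand-specific libraries from total RNA of L3–L5 DRG and sequenced them. The submitters' processing notes name cutadapt 1.10, FastQC, HISAT2 and StringTie, and build mm10. The authors deposited raw counts per gene and FPKM values for 18 libraries (36737 genes). Columns named Con were matched to the Sham samples, since the others are named for the fracture groups. The strand setting of the counting is not given in the sources used here.

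Gene counts were fitted with edgeR 4.0.16 in R 4.3.3 (filterByExpr with minimum count 10 and total 15, TMM, robust quasi-likelihood fit, sex as covariate, 12 libraries per comparison), and p-values were adjusted by Benjamini-Hochberg over all genes tested. limma 3.58.1 and DESeq2 1.42.0 served as alternatives. Log2 CPM used a prior count of 2, and the log2(FPKM + pseudocount) scale, which understates changes of low genes, used 1 and 0.1. The fits were tested on simulated data. The members and the gene lists were chosen with earlier results of these data known. Named genes are all 10 members, genes of the wider clock and output lists with an adjusted p-value under 0.05 in a comparison of groups, the 3 of them with the smallest unadjusted p-value for Fracture against Sham, and the 10 most and 5 least like *Nr1d1*. Other lists, the cell type markers among them, are given as counts and summed levels, and *Pvalb*, *Sphk2* and *Hlf* were named after their values were seen. Each library came from a separate mouse, and counts of no pair of libraries of 1 group agreed within sampling noise. Mice of the same sex and number in different groups did not deviate together (correlations of −0.07 to 0.13, 1 of 18 above 0.1) and were not treated as pairs.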

Additional observations from a re-analysis of the deposited data

Results flagged for a closer look

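In the Fracture+PDX group the *Per2* level of female 3 was 19.8 CPM, apart from the other 5 libraries (14.2 to 16.0 CPM), and its gap to the nearest was 0.668 of the range of the group, above Dixon's critical value for 6 samples. The same test was made on 30 combinations of gene and group, of which chance marks about 1 in 20, and this was the 1 that stood out. Female 3 also had the highest *Per3* of that group (34.3 CPM).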

How the results depend on the processing

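The number of clock genes called for Fracture against Sham, a description since these libraries chose the genes, was 2 in the reported fit, 4 by DESeq2 and 2 to 4 with each library left out (4 without Sham female 1, both times with *Nr1d2* and *Ciart* added), with 603 genes of the table called in the reported fit, 1511 by DESeq2, 390 and 225 by limma on log2(FPKM + 1) and log2(FPKM + 0.1), 55 with the muscle covariate and 213 to 710 with each library left out. For Fracture+PDX against Sham it was 2 by DESeq2 and with all 18 libraries in 1 fit, 0 by limma on log2(FPKM + 0.1) and 0 to 2 with each library left out (2 without Sham male 1, 0 without Sham female 2 or Fracture+PDX male 1, male 3 or female 1), with 1620 genes by DESeq2, 458 by limma on log2(FPKM + 0.1) and 498 to 1008 with each library left out. The placenta covariate left 1 gene and 0 clock genes for Fracture, and 0 and 0 for Fracture+PDX, against Sham. For Fracture+PDX against Fracture DESeq2 called 15 genes, and 0 to 1 were called with each library left out. For sex DESeq2 called 332, and 24 to 86 were called with each library left out. With a replicate block for the numbered mice of each sex, 118 genes passed for Fracture against Sham and 486 for Fracture+PDX against Sham, where *Nr1d2* passed and *Nr1d1* did not (adjusted p = 0.0595 by edgeR). The correlations that passed fell from 13 to 2 without the 2 farthest libraries and to 0 without Sham female 1.

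Among the alternatives run, sign changes of a log2 fold change were limited to *Bhlhe41*, *Per1* and *Tef*, whose reported values were within 0.03 of 0 except that of *Per1* for Fracture+PDX against Sham (−0.23). *Bhlhe41* was at −0.0078 and −0.0099 by limma on FPKM and −0.046 to 0.050 with each library left out for Fracture against Sham, at −0.0017, −0.0030, −0.050 to 0.071 and −0.020 (placenta covariate) for Fracture+PDX against Sham, at −0.066 with the muscle covariate and −0.058 to 0.069 with each library left out for Fracture+PDX against Fracture, and at −0.064 to 0.018 for sex. *Per1* was at −0.00038 and −6.2e-05 by limma and −0.079 to 0.097 with each library left out for Fracture+PDX against Fracture, and at 0.069 with the placenta covariate for Fracture+PDX against Sham. *Tef* was at −0.040 to 0.0092 for Fracture against Sham and −0.0059 to 0.024 for sex, with each library left out. The cause of these changes was not tested. *Nr1d1* and *Dbp* kept their direction in all 3 comparisons of groups under every alternative run. These alternatives refit the libraries that chose *Nr1d1*, so the kept direction is a description. For Fracture+PDX against Sham with the placenta covariate the values were −0.13 ± 0.20 and −0.13 ± 0.28 (log2 fold change ± SE), smaller than their SE. At this depth *Arntl*, the lowest of the 10, had 113 to 398 counts a library.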

Other observations

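The glucocorticoid-responsive genes of the DRG, a list of 12 that shares *Tsc22d3* and *Pdk4* with the clock outputs, had a log2 fold change below 0 in 11 of 12 for Fracture against Sham (median −0.22, with 49.3% of all genes below 0) and in 11 of 12 for Fracture+PDX against Sham (median −0.33, with 50.4% of all genes below 0), both against the same Sham libraries. None passed an adjusted p-value of 0.05 by edgeR in either, against 2.92% and 4.5% of all genes. In each, 3 had an unadjusted p-value under 0.05 by edgeR, as had 3817 of 20659 and 3695 of 20574 genes of the table, so nothing is read from these 3. For Fracture+PDX against Fracture 8 of 12 were below 0 (median −0.18, with 50% of all genes below 0) and 0 passed. The summed level of the list ranged from 579 to 1053 CPM in Sham, from 644 to 843 in Fracture and from 591 to 734 in Fracture+PDX.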
